A study of Mus musculus with 8 samples.

Results

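The transcripts of 9 genes that write, copy, remove or read DNA methylation, or that belong to a neighbouring chromatin mark, were followed in the pituitary of young and old mice. The genes were Dnmt1, Dnmt3a, Dnmt3b, Tet1, Tet2, Tet3, Uhrf1, Mbd2 and Ezh2, taken by symbol from the 49585 gene rows of each library, and each symbol was found on 1 row. Only the Dnmt and Tet genes encode enzymes that act on DNA methylation. Uhrf1 encodes a ubiquitin ligase that recruits the maintenance enzyme, Mbd2 a protein that binds methylated DNA, and Ezh2 an enzyme that methylates lysine 27 of histone H3. The set is therefore called the methylation genes below.

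Whole pituitary of wild-type (WT) C57BL/6 mice was profiled by mRNA sequencing in 4 libraries from young animals (2 to 3 months) and 4 from old animals (18 to 24 months). The mice of both ages were housed free of specific pathogens on regular chow with no treatment named, and blood was removed by perfusion before the gland was taken. The ages are ranges, and neither the labels nor the text of the study say that each library came from a separate mouse, so p-values measure the spread between these libraries, which may in part be technical. RNA of the whole gland averages over all of its cell types, and fewer cells of a type cannot be told apart from less RNA per cell.

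DNA methylation is the addition of a methyl group to cytosine, in mammals mostly where a cytosine is followed by a guanine (a CpG site). DNMT3A and DNMT3B place it on unmethylated DNA, and DNMT1, brought to newly copied DNA by UHRF1, restores it on the daughter strand after each round of replication. The TET enzymes oxidise the methyl group, which opens the way to its removal. MBD2 recruits the NuRD repressor complex to methylated sites. EZH2 is the catalytic subunit of Polycomb repressive complex 2, a separate silencing system, and is used above all by dividing cells, with EZH1 as its counterpart in resting ones. The adult pituitary consists mostly of hormone-secreting cells, which divide rarely.

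Levels are given in FPKM, fragments scaled to exon length and to the size of the library, so they can be compared between genes. Old and young libraries were compared with limma on log2(FPKM + 0.1), on which the fold changes of low genes are understated. A gene was called when its Benjamini-Hochberg adjusted p over all 23498 genes tested was under 0.05. Over these genes 547 (2.33%) were called, 436 higher (1.86%) and 111 lower (0.472%) in old pituitary. The libraries held 15042321 to 20429604 fragments. The 8 hormone cell markers summed to between 101376 and 160076 FPKM in every library, so the tissue carried its defining transcripts. Between 33.8 and 40.3% of a library fell on genes of the ribosomal RNA repeat, and 9.05 to 14.1% on hormone genes. Scaled to these totals, all genes tested had a median log2 fold change of 0.15 from young to old. It was 0.0082 after median-of-ratios scaling, where 213 genes were called higher and 217 lower, so fold changes are read against that shift.

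In the GRCm38 assembly the maintenance genes lie on chromosome 9 from 20907209 to 20959888 (Dnmt1) and on chromosome 17 from 56303321 to 56323486 (Uhrf1). The de novo genes lie on chromosome 12 from 3806007 to 3914443 (Dnmt3a) and on chromosome 2 from 153649450 to 153687730 (Dnmt3b). Tet1 spans 62804570 to 62908996 of chromosome 10, Tet2 spans 133463679 to 133545139 of chromosome 3 and Tet3 spans 83362373 to 83459084 of chromosome 6. Ezh2 lies on chromosome 6 from 47530139 to 47595341. FPKM count fragments over all annotated exons of a gene. Exons of Dnmt3a, Ezh2 and Tet2 overlap an antisense gene each (Dnmt3aos, Gm26625 and Gm42567). No source used here says whether the counting used strand, so fragments of these pairs cannot be told apart.

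RefSeq promoter windows (250 bases before to 50 bases after a transcript start, GRCm38.p6) were found for 8 of the 9 genes, 13 windows in all. E2F factors switch on many genes of DNA replication, so the windows were searched for the E2F site. Sequence is shown only for the 3 genes with a match. The E2F site was searched on both strands in 4 spellings, TTTCCCGC, TTTCGCGC, TTTGCCGC and TTTGGCGC. It occurred in 2.26% of all 32851 windows, in 7 of the 27 windows (25.9%) of a list of cell division genes, and in a window of Uhrf1, of Dnmt1 and of Ezh2. Of the 30 genes of that list, 23 had a window. Every spelling holds a CpG site, and the median window of the list held 24 CpG sites against 7 over all windows. These shares are not matched for CpG content. Each sequence runs 5′ to 3′ on the strand of its gene, and the match stands in capitals, read on the opposite strand for Dnmt1.
Uhrf1, plus strand, the 250 bases before the start, chr17:56304063-56304312: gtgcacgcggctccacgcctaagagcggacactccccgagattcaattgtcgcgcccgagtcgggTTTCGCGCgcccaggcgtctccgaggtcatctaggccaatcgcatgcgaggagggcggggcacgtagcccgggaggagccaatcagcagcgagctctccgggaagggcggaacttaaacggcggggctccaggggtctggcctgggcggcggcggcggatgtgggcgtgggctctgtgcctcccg
Dnmt1, minus strand, the 250 bases before the start, chr9:20952624-20952873: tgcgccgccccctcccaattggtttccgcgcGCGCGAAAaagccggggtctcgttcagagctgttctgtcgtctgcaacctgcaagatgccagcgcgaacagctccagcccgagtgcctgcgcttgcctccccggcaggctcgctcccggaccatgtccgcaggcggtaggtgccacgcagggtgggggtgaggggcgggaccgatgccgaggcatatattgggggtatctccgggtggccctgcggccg
Ezh2, minus strand, 30 bases around the match, chr6:47595009-47595038: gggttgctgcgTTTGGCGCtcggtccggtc
The match of Uhrf1 begins at position −185 and that of Dnmt1 at position −219, each counted from the transcript start of its own window. That of Ezh2 begins 3 bases past the start. A second match of Dnmt1 begins 33 bases past the start. A match is a run of letters and shows no binding, and these windows of Uhrf1 and Dnmt1 are 1 of 2 and 1 of 3 for their genes. Both are the window farthest downstream, and both printed stretches lie inside the annotated spans of their genes. They may therefore hold transcribed bases, and the positions of these matches do not hold for transcripts from the other starts. Promoters of the other 5 genes with a window held none of the 4 spellings. The 13 windows held 2 to 57 CpG sites, with a median of 30 against 7 over all windows. The window of Tet2 held the 57, more than 99.8% of all windows.

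None of the 9 methylation genes was called between young and old pituitary, against 2.33% of all genes tested. All 9 passed the filter on low values (0.1 FPKM on average). At an unadjusted p under 0.05 there was 1 of 9, Ezh2, against 21.8% of all genes. After median-of-ratios scaling there were 3 of 9, all lower in old pituitary, against 4028 of the 23474 genes tested. Young and old libraries overlapped in every one of the 9, while 15.4% of all genes had ages that did not overlap. The median log2 fold change over the 9 genes was −0.04, against 0.15 over all genes tested. After median-of-ratios scaling these medians were −0.19 and 0.0082. Voom, which weights log2 counts of fragments by their precision, called 7.63% of genes and again none of the 9.

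**Figure D1:**
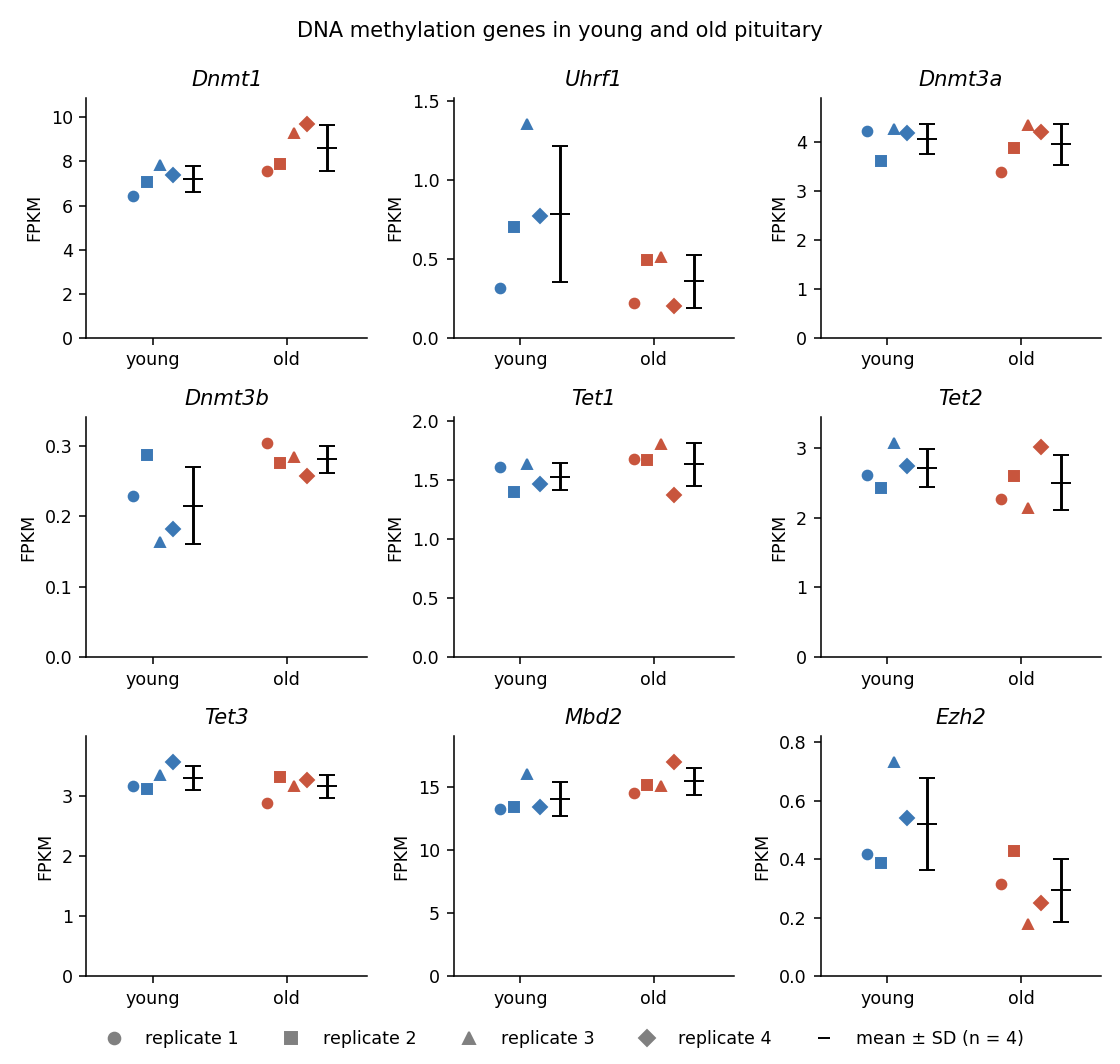
FPKM of the 9 methylation genes (vertical axes, linear from 0, own scale per panel) in each young and old library, with the symbol giving the replicate number and the black bar the mean and SD of 4 libraries. The ages overlap in every panel, the means differ most, in proportion, for Uhrf1 and Ezh2, and Dnmt1 is above every young library in 3 of 4 old libraries.

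The order of the levels was the same at both ages. Mbd2 was highest with 14.1 ± 1.35 FPKM in young against 15.5 ± 1.08 FPKM in old pituitary (SD, n = 4 each, as for all means below). Dnmt1, Dnmt3a, Tet3, Tet2, Tet1, Uhrf1 and Ezh2 followed, and Dnmt3b was lowest with 0.215 ± 0.0550 and 0.280 ± 0.0194 FPKM. Among the young libraries the ranges of neighbours in this order overlapped only for Uhrf1 and Ezh2. Among the old libraries they overlapped for Tet3 and Tet2, for Uhrf1 and Ezh2, and for Ezh2 and Dnmt3b, so the order of the 3 lowest genes was not resolved there. The values of Dnmt3b rest on 17 to 28 fragments per library and those of Uhrf1 on 15 to 118, whereas Dnmt1 had 786 to 1319.

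Dnmt1, the maintenance methyltransferase, was measured at 6.45, 7.08, 7.86 and 7.40 FPKM in the young libraries and at 7.56, 7.88, 9.28 and 9.72 FPKM in the old ones. All old libraries but replicate 1 were above every young library, and that one lay between young replicates 4 and 3. The means were 7.20 ± 0.594 and 8.61 ± 1.05 FPKM. The log2 fold change from young to old was 0.25 (SE 0.12, adjusted p = 0.27), a fold of 1.19 with a 95% interval of 0.982 to 1.44. It stood 0.10 above the median of all genes.

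Uhrf1, whose protein brings DNMT1 to hemimethylated DNA, was low and uneven. The young libraries gave 0.314, 0.702, 1.36 and 0.770 FPKM and the old ones 0.219, 0.495, 0.512 and 0.201 FPKM. Young replicate 1 fell within the old range, and young replicate 3 stood well above all others. The mean was 0.786 ± 0.430 FPKM in young against 0.357 ± 0.170 FPKM in old pituitary. Its log2 fold change was −0.90 (SE 0.42, adjusted p = 0.26), and the 95% interval of the fold was 0.274 to 1.05. Within an age the libraries varied far more than counting alone would give, by 54.7% of the mean in young and 47.6% in old against counting errors of 12.8% and 19.0%. Leaving out young replicate 3 moved the log2 fold change to −0.61 (adjusted p = 0.44), and leaving out young replicate 1 moved it to −1.22 (adjusted p = 0.16).

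The ratio of Dnmt1 to Uhrf1 in FPKM ranged from 5.80 to 20.5 in the young and from 15.9 to 48.3 in the old libraries, with overlap. Its mean was 11.5 ± 6.32 and 29.2 ± 15.2. The ratio follows Uhrf1, the more variable of the pair, and is a description with no test.

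Dnmt3a, the more abundant of the de novo methyltransferases, had the fold change nearest to 0 of the set with FPKM as deposited. It was measured at 4.22, 3.60, 4.26 and 4.18 FPKM in young against 3.39, 3.88, 4.34 and 4.20 FPKM in old libraries. The lowest and the highest value were both from old pituitary. On the log2 scale the fold change was −0.04 (SE 0.11, adjusted p = 0.85), and it was 0.027 without old replicate 1 and −0.19 after median-of-ratios scaling. The 95% interval of the fold was 0.811 to 1.16.

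Dnmt3b, the de novo enzyme best known from the early embryo, was near the limit of these libraries. It gave 0.228, 0.286, 0.163 and 0.182 FPKM in young against 0.304, 0.275, 0.285 and 0.258 FPKM in old libraries. Every old library was above young replicates 1, 3 and 4, and old replicate 1 was above young replicate 2 as well. Its log2 fold change was 0.29 (SE 0.14, adjusted p = 0.27), with a fold of 1.22 (95% interval 0.981 to 1.52). The 4 young libraries held 76 fragments of this gene and the 4 old ones 102, which gives counting errors of 22.9% and 19.8% per library. Dnmt3a exceeded Dnmt3b 12.6 to 26.1-fold in the young and 11.1 to 16.3-fold in the old libraries.

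The Tet genes, whose enzymes start active demethylation, gave log2 fold changes between −0.12 and 0.09 with FPKM as deposited, and none was called. After median-of-ratios scaling, where the median of all genes was 0.0082, all were negative and none was called by limma. Tet2 was then at −0.26 (SE 0.13, adjusted p = 0.34), Tet3 at −0.21 (SE 0.071, adjusted p = 0.20) and Tet1 at −0.055. The values below use FPKM as deposited unless a scaling is named. Tet3 had the highest level of them, 3.29 ± 0.205 FPKM in young against 3.15 ± 0.196 FPKM in old pituitary, a log2 fold change of −0.06 (SE 0.09, adjusted p = 0.73). Its libraries ran from 3.11 to 3.56 FPKM and from 2.88 to 3.32 FPKM. Tet2 ran from 2.42 to 3.08 FPKM among the young and from 2.13 to 3.01 FPKM among the old libraries, with means of 2.71 ± 0.275 and 2.50 ± 0.392 FPKM. Replicates 1 and 3 of the old group were below every young library, and replicate 4 was above all young libraries but replicate 3. The log2 fold change of Tet2 was −0.12 (SE 0.13, adjusted p = 0.63), with a 95% interval of the fold of 0.741 to 1.14.

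Tet1 was the lowest Tet gene, with 1.61, 1.40, 1.63 and 1.46 FPKM in young against 1.68, 1.67, 1.80 and 1.37 FPKM in old libraries. Old replicates 1, 2 and 3 were above every young library and old replicate 4 was below every one. On the log2 scale the fold change was 0.09 (SE 0.11, adjusted p = 0.69), and it turned negative, from −0.055 to −0.041, under each of the 3 other scalings. Together the Tet genes summed to 7.53 ± 0.488 FPKM in young against 7.28 ± 0.397 FPKM in old pituitary. Tet3 gave 43.8 and 43.3% of the sum, Tet2 36.0 and 34.2%, and Tet1 20.3 and 22.5%. The share of Tet1 ran from 18.8 to 21.7% among the young and from 17.9 to 25.4% among the old libraries.

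Set against the Tet sum, Dnmt1 gave a ratio of 0.874, 1.02, 0.977 and 0.953 in the young and of 1.11, 1.04, 1.31 and 1.27 in the old libraries. The ages did not overlap in this ratio, which does not depend on library scaling. It was chosen with the values of both in view and is given as a description, with no test.

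Mbd2, the methyl-CpG reader of the set, spans 70568189 to 70626131 of chromosome 18. It was measured at 13.2, 13.5, 16.1 and 13.5 FPKM in young against 14.5, 15.2, 15.1 and 17.0 FPKM in old libraries. Only young replicate 3 reached into the old range. Its log2 fold change was 0.14 (SE 0.10, adjusted p = 0.47), close to the median of all genes, and it turned to −0.011 after median-of-ratios and to −0.0099 after upper-quartile scaling. The 95% interval of the fold was 0.932 to 1.30.

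**Figure D2:**
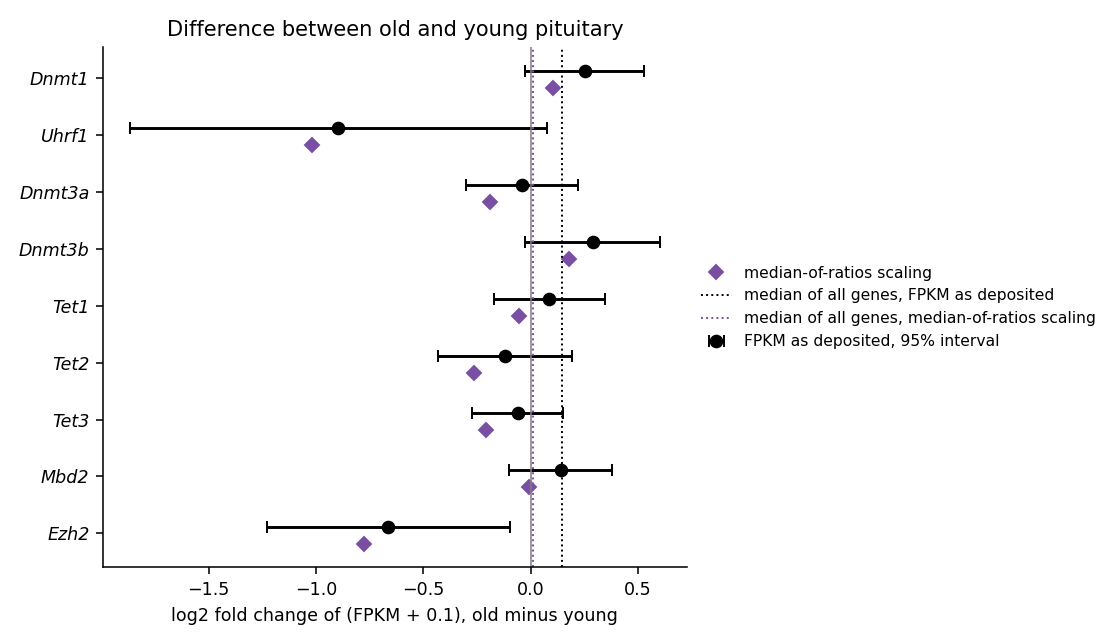
Log2 fold change of (FPKM + 0.1), old minus young, for each methylation gene (black points, with the 95% interval from limma) and its value after median-of-ratios scaling (purple diamonds). The dotted lines mark the median of all genes under each scaling, 0.15 and 0.0082, and the interval of Ezh2 alone leaves out 0. Mbd2 and Tet1 change sign between the scalings.

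Ezh2, the catalytic subunit of Polycomb repressive complex 2, had the smallest p of the 9 genes. The young libraries gave 0.418, 0.388, 0.733 and 0.540 FPKM and the old ones 0.316, 0.429, 0.179 and 0.248 FPKM. Old replicates 1, 3 and 4 were below every young library, and old replicate 2 was above young replicates 1 and 2. The mean was 0.520 ± 0.157 FPKM in young against 0.293 ± 0.107 FPKM in old pituitary, on 253 and 139 fragments in all. On the log2 scale the fold change was −0.66 (SE 0.24), with an unadjusted limma p of 0.027 and an adjusted p of 0.17. The 95% interval of the fold was 0.426 to 0.934. The adjusted p was 0.067 with voom, and between 0.067 and 0.33 over the 17 alternative settings in which the gene was tested.

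Of the 10 genes tested in a list of the rest of Polycomb repressive complex 2 and its opposing demethylases, 1 was called by limma, higher in old pituitary, and none lower, against 1.86% and 0.472% of all genes. Voom called 4 of the 10, against 7.63% of all genes, with Ezh1, Kdm6a and Phf1 higher and Phf19 lower. The call of limma was Ezh1, the other catalytic subunit. It was measured at 2.64, 2.48, 2.26 and 2.43 FPKM in young against 3.76, 3.70, 3.30 and 3.40 FPKM in old libraries, with no overlap. The mean rose from 2.45 ± 0.158 to 3.54 ± 0.223 FPKM, a log2 fold change of 0.51 (SE 0.09, adjusted p = 0.040). The call was lost after median-of-ratios scaling (0.37, adjusted p = 0.16) and when any 1 library was left out (adjusted p between 0.064 and 0.11). It held in 5 of 18 alternative settings, and the fold change was positive in all 18.

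The core subunits Suz12 and Eed were called by neither limma nor voom. Suz12 had a log2 fold change of 0.25 (adjusted p = 0.30) and Eed one of 0.25 (adjusted p = 0.45). Of the accessory subunits, Phf19 went from 0.678 ± 0.180 to 0.350 ± 0.114 FPKM (log2 fold change −0.80, adjusted p = 0.10) and Phf1 from 17.9 ± 1.54 to 23.9 ± 0.448 FPKM (0.41, adjusted p = 0.064), both by limma. Kdm6a, a demethylase of the mark, went from 5.01 ± 0.258 to 6.19 ± 0.150 FPKM (0.30, adjusted p = 0.099). These 5 genes were chosen after their values had been seen. The ratio of Ezh1 to Ezh2 in FPKM was 3.08 to 6.38 in the young and 8.62 to 18.5 in the old libraries. Every old library was above every young one in this ratio, which is a description with no test, chosen with both values known.

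The neighbouring pathways were read from 8 lists of 124 genes, of which 110 were tested. Of these, 2 were called (1.82%, against 2.33% of all genes), voom called 15 (against 7.63% of all genes) and 27 had an unadjusted p under 0.05 (24.5%, against 21.8%). The ages did not overlap in 24 of the 110, 18 higher and 6 lower in old pituitary, against 15.4% of all genes in either direction. The shares called by limma and at the unadjusted p were near those of all genes, and the 2 calls were Ezh1 and Cdca7.

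Cdca7, a zinc finger protein that works with the remodeller HELLS in the maintenance of methylation, was the call among 10 tested cofactors and regulators, and it was lower in old pituitary. The young libraries gave 0.182, 0.166, 0.367 and 0.154 FPKM on 51 fragments in all, and the old libraries 0.0194, 0.0507, 0.0324 and 0 FPKM on 6 fragments in all. Young replicate 3 was again the highest library, and the ages did not overlap. Its log2 fold change was −1.30 (SE 0.22, adjusted p = 0.035). The gene passed the filter of 0.1 FPKM only through the young libraries, with means of 0.217 and 0.0256 FPKM, so a gene let in this way had to differ and the call adds little. The call held in 5 of the 16 alternative settings in which the gene was tested and was lost with a pseudocount of 1 (−0.24, adjusted p = 0.11) and when any library but young replicate 3 was left out (adjusted p between 0.051 and 0.094). Without young replicate 3 the gene fell below the filter.

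None of the 9 other methyl-CpG readers was called, and 8 of them had a positive log2 fold change. Their median was 0.29, against 0.15 over all genes, and 6 had an unadjusted p under 0.05 in limma (21.8% of all genes), while voom called 2 (7.63% of all genes). In 5 every old library was above every young one, and 15.4% of all genes had ages that did not overlap. Zbtb38, a zinc finger protein that binds methylated CpG, was at 2.78, 2.71, 3.01 and 3.00 FPKM in young against 4.03, 3.80, 3.86 and 3.72 FPKM in old libraries (log2 fold change 0.41, adjusted p = 0.052). After median-of-ratios scaling the median of the readers was 0.14 against 0.0082 over all genes, and 2 instead of 6 had an unadjusted p under 0.05 and a positive sign.

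None of 17 genes of active demethylation and base excision repair was called by limma, and their median log2 fold change was 0.09. At an unadjusted p under 0.05 there were 4 of the 17, against 21.8% of all genes, and voom called 4 of the 17, against 7.63%. D2hgdh, the enzyme that clears D-2-hydroxyglutarate, an inhibitor of the TET enzymes, went from 2.83 ± 0.261 to 3.92 ± 0.378 FPKM (log2 fold change 0.46, adjusted p = 0.074). Cxxc4, a CpG-binding protein that interacts with TET2, went from 2.24 ± 0.244 to 2.97 ± 0.0630 FPKM (0.40, adjusted p = 0.082). Gadd45a, linked to DNA repair and demethylation and named after its values had been seen, went from 13.9 ± 4.10 to 7.30 ± 1.85 FPKM (−0.92, adjusted p = 0.12). The ages did not overlap in any of these genes, nor in 4 of the 17 in all, against 15.4% of all genes. As they were named by smallest p or with values seen, their separation adds little.

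None of 18 genes of the methionine and folate cycles, which make the methyl donor S-adenosylmethionine, was called by limma. Their median log2 fold change was 0.08, 4 had an unadjusted p under 0.05 (against 21.8% of all genes), and voom called 1, Mat2b (against 7.63%). Mat2b, the regulatory subunit of methionine adenosyltransferase, went from 5.97 ± 0.626 to 8.11 ± 0.447 FPKM (log2 fold change 0.44, adjusted p = 0.072). Mtr, methionine synthase, went from 6.29 ± 0.435 to 7.66 ± 0.386 FPKM (0.28, adjusted p = 0.14).

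The NuRD complex, to which MBD2 belongs, had none of 12 genes called by limma and a median of 0.11. There was 1 gene, Mta3, at an unadjusted p under 0.05, which voom called, against 21.8 and 7.63% of all genes. Mta3, a NuRD subunit, went from 3.63 ± 0.282 to 4.81 ± 0.339 FPKM (log2 fold change 0.39, adjusted p = 0.082), and Gatad2b, another one, from 6.10 ± 0.738 to 7.08 ± 0.666 FPKM (0.21, adjusted p = 0.35). Of 15 germline genes, many of them silenced by promoter methylation in somatic cells, 11 fell below the filter. None of the other 4 was called by limma or voom, and 2 had an unadjusted p under 0.05, against 21.8% of all genes. Tex101 held 9 fragments over the young and 18 over the old libraries (log2 fold change 0.52, adjusted p = 0.13), and Piwil2 held 67 and 22 (−0.77, adjusted p = 0.14). Each passed the filter only through the age in which it was high. The young and old means were 0.0759 and 0.151 FPKM for Tex101 and 0.189 and 0.0629 FPKM for Piwil2. Genes let in this way had to differ, so their p-values and the count of 2 add little.

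**Figure D3:**
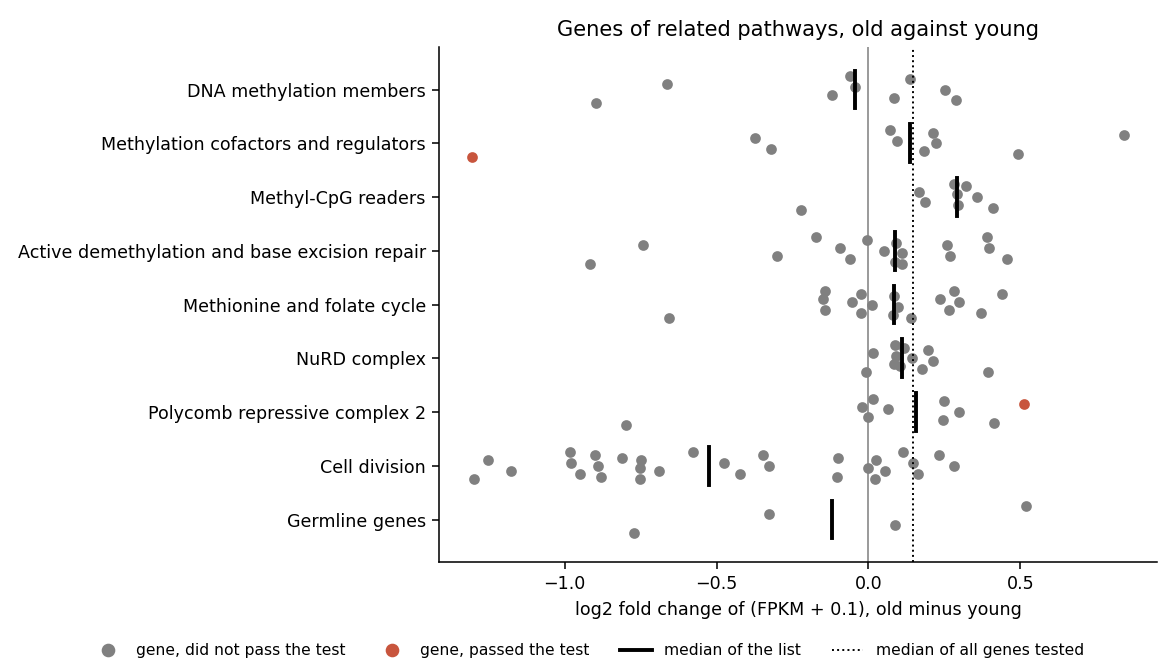
Log2 fold change of (FPKM + 0.1), old minus young, of every tested methylation gene and every tested gene of the 8 lists (points; red where the adjusted p was under 0.05), with list medians (bars) and the median of all genes, 0.15 (dotted line). Only Cdca7 and Ezh1 are red, and the cell division list has its median at −0.53.

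The list of 30 cell division genes was also without a call by limma, with 3 genes at an unadjusted p under 0.05 (against 21.8% of all genes), and voom called 2 of them lower, Mcm2 and Ccnb1 (against 7.63% in either direction). Its median log2 fold change was −0.53, and 8 of the 30 values were positive. Mcm2, a subunit of the replicative helicase, was at 2.02, 2.27, 2.84 and 1.89 FPKM in young against 1.35, 1.75, 1.57 and 1.64 FPKM in old libraries (−0.48, adjusted p = 0.13). Ccnb1, the mitotic cyclin B1, went from 0.430 ± 0.135 to 0.157 ± 0.134 FPKM (−1.18, adjusted p = 0.15). Mki67, the gene of the Ki-67 proliferation antigen, ran from 0.567 to 3.99 FPKM in young against 0.204 to 1.08 FPKM in old libraries (−1.25, adjusted p = 0.31), and was named after its values had been seen. Without young replicate 3 the median of the list was −0.28.

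The mean log2(FPKM + 0.1) of these 30 genes was −0.22, 0.18, 1.05 and 0.38 in the young libraries and −0.47, 0.32, 0.16 and −0.54 in the old ones. Young replicate 3 was highest, old replicates 1 and 4 were lowest, and the ages overlapped. Each methylation gene was correlated with this mean over the 8 libraries, 9 relations in all, a comparison chosen after the values had been seen. None of the 9 is in the list.

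Uhrf1 followed the cell division genes closely, with Pearson's r = 0.97 (n = 8, exact permutation p = 0.00055, two-sided, adjusted over the 9 relations p = 0.0049). Spearman's rho was 0.93 (exact permutation p = 0.0022, adjusted p = 0.020). Without the 2 libraries farthest from the median of the mean, young replicate 3 and old replicate 4, r was 0.92. It lay between 0.95 and 0.99 when each library was left out in turn. The permutations ignored age, so these p-values also cover any difference between the ages. After subtracting the mean of each age r was 0.97, with no p computed. With 4 libraries per age no r was computed within an age, and the labels name no batch. Both measures come from the same libraries and share their scaling.

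Ezh2 gave r = 0.69 (n = 8, exact permutation p = 0.053, adjusted p = 0.24) and rho = 0.81 (exact permutation p = 0.022, adjusted p = 0.098). Without the 2 farthest libraries its r was 0.25. Leaving these out narrows the range of the cell division mean, which can lower r, so this value cannot show what the relation rests on. The r of Ezh2 was thus not stable. It lay between 0.41 and 0.94 when each library was left out in turn and was 0.55 after subtracting the mean of each age. Old replicate 3 was the lowest library for Ezh2 but not for the cell division genes. Dnmt1 gave r = −0.13 (exact permutation p = 0.77, adjusted p = 0.87), with no stable sign. Its r was between −0.36 and 0.29 when each library was left out in turn, 0.30 without the 2 farthest libraries and 0.34 after subtracting the mean of each age. None of the other 6 genes passed, with r between −0.66 for Dnmt3b and 0.56 for Tet3 (adjusted exact permutation p between 0.29 and 0.93). The proteins of Uhrf1 and Dnmt1 act together on newly copied DNA and a promoter window of each holds an E2F spelling, but the difference between their correlations was not tested.

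**Figure D4:**
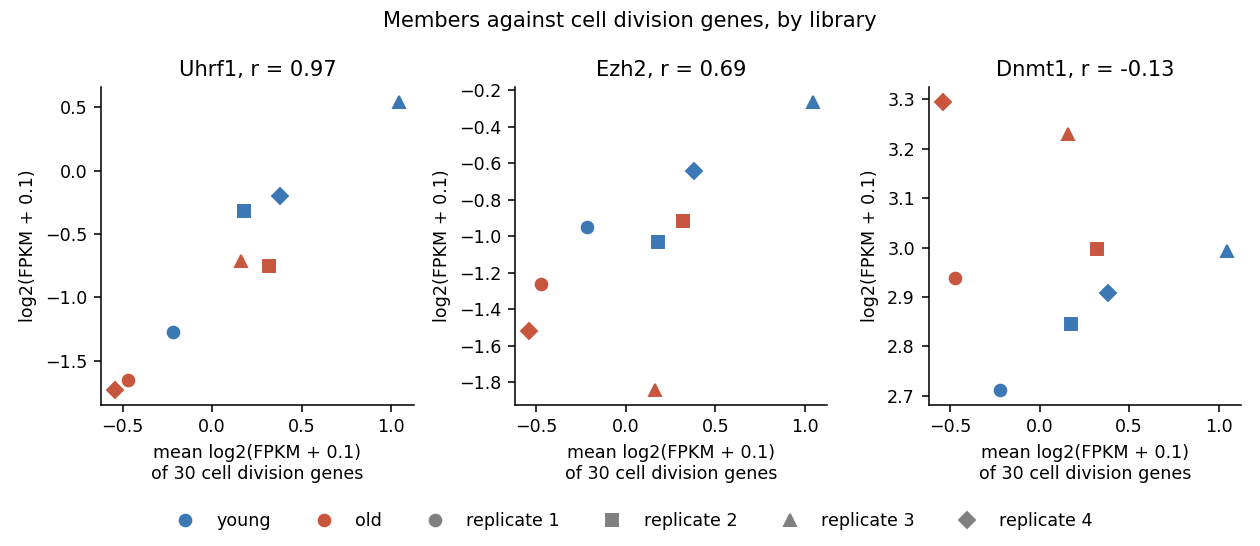
Level of Uhrf1, Ezh2 and Dnmt1 (vertical axes, log2(FPKM + 0.1)) against the mean log2(FPKM + 0.1) of 30 cell division genes (horizontal axes) in the 8 libraries, coloured by age and with the symbol giving the replicate number. The points of Uhrf1 lie near a rising line (r = 0.97), those of Ezh2 scatter around one (r = 0.69), and those of Dnmt1 do not lie along one (r = −0.13).

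Among the 14588 genes that averaged 1 FPKM or more, the 5 whose log2 levels were most like those of Ezh2 over the 8 libraries were Far1 (r = 0.96), Phyh (0.92), Camk1d (0.92), Gm9938 (0.92) and Nid1 (0.92). Far1 encodes a fatty acyl-CoA reductase of ether lipid synthesis and Phyh the peroxisomal phytanoyl-CoA hydroxylase, while Camk1d encodes a calcium-dependent kinase and Nid1 the basement membrane protein nidogen. Far1 was at 6.92, 6.95, 8.10 and 8.22 FPKM in young against 6.25, 6.99, 5.72 and 6.20 FPKM in old libraries. After subtracting the mean of each age, r was between 0.85 and 0.91 for these 5 genes. They were picked as the highest of many over few libraries, and the values are a description.

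Some markers of other cells moved with age in the same libraries. Of all genes tested, 1.86% were called higher and 0.472% lower in old pituitary. Signs here are those of FPKM as deposited, where the median over all genes was itself shifted to 0.15. A positive sign alone therefore says little, and no other scaling is given for the markers. The 8 macrophage markers all had positive log2 fold changes, 2 of them called (C1qb and Lyz2), and their sum was 33.7 to 58.0 FPKM in young against 72.5 to 98.4 FPKM in old libraries. Lymphocyte markers summed to 0.584 to 0.851 and 2.99 to 4.24 FPKM, with Jchain called among the 3 of 8 tested. Among hormone cell markers, Gh and Lhb were called lower, while 5 of the 8 had a positive log2 fold change. The sum of the 8, in which abundant genes weigh most, went from 135872 to 160076 FPKM down to 101376 to 129791 FPKM. Mesenchymal markers, with Col1a1 called lower, summed to 65.3 to 78.6 and 46.4 to 75.0 FPKM. Of the posterior lobe, 4 of 6 markers were tested and none called, with sums of 0.551 to 0.796 and 1.14 to 12.4 FPKM. Blood markers, still present after perfusion, summed to 13.5 to 109.7 and 16.1 to 126 FPKM. Stem cell, endothelial and blood markers had no call and overlapped between the ages, and no marker of any list was at 0 in all libraries. The part of these cells in the levels of Dnmt1, Mbd2, Ezh1 and the other readers was not tested.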

How the data were processed

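The authors deposited 1 list of FPKM values per library. By their methods and processing notes, the authors ran STAR (2.6.1a) on paired reads of poly(A) RNA against GRCm38, featureCounts on genes, and edgeR (3.28.1) for FPKM. The annotation release and the strand setting were not given in the sources used here. Samples were grouped by the age in their titles.

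FPKM were used as deposited. Log2(FPKM + 0.1) was compared between 4 old and 4 young libraries with limma (version 3.58.1, R 4.3.3), with trend and robust off, with Benjamini-Hochberg adjustment over genes averaging 0.1 FPKM or more. Intervals are at 95% and rest on the moderated spread. Fragments were computed back with exon lengths of GENCODE M21: 90.3 to 91.4% of low values were whole within 0.01, and lengths were fitted for 5524 other rows, Tet1 among them. They served for fragment numbers, voom and scaling. Counting errors cover counting alone. Each library was counted as 1 sample. Replicate libraries differed by more than sampling noise, which does not show that they came from separate mice.

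The 9 genes and the lists were chosen with earlier results of these data known. Of each list, every called gene was named, otherwise the 2 of smallest p, and for the member of smallest p the 5 genes most correlated with it. Other names were chosen after their values were seen. Not every gene taken by this rule is reported here. Correlations used exact permutation of all 40320 pairings without regard to age (scipy 1.17.1, Python 3.11.15). Promoters came from RefSeq. The alternatives were other pseudocounts, filters and scalings, a mean-variance trend, voom, a block for the replicate number, and leaving out 1 library at a time. The single-cell data of the study were not analysed here.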

Additional observations from a re-analysis of the deposited data

Results flagged for a closer look

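In groups of 4 libraries, 46 of which were examined for the methylation genes and the named genes of the lists, the highest or the lowest library stood apart by Dixon's ratio in 6, and chance alone gives about 1 group in 20. Among the methylation genes these were Dnmt3a in young replicate 2, with 3.60 FPKM against 4.18 to 4.26 in the other young libraries, and Mbd2 in young replicate 3, with 16.1 FPKM against 13.2 to 13.5. Cdca7 was highest in young replicate 3, with 0.367 FPKM against 0.154 to 0.182. Mat2b was lowest in old replicate 4, with 7.44 FPKM against 8.26 to 8.38, and Mta3 was lowest in young replicate 2, with 3.21 FPKM against 3.76 to 3.79. Piwil2 was highest in young replicate 4, with 0.356 FPKM against 0.122 to 0.149.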

How the results depend on the processing

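None of the 9 methylation genes was called in any of 18 alternative settings, and 153 of 159 alternative fold changes kept their sign. The log2 fold change of Mbd2 turned to −0.011 with median-of-ratios and −0.0099 with upper-quartile scaling. That of Tet1 turned to −0.055 with median-of-ratios scaling, −0.055 with upper-quartile scaling and −0.041 with the library size without hormone and ribosomal RNA repeat genes. That of Dnmt3a turned to 0.027 without old replicate 1, and ran from −0.098 to 0.027 over the fits without 1 library. The 547 calls over all genes became 827 with a pseudocount of 1, 919 among genes of at least 1 FPKM, 343 over every gene above 0, 837 with a mean-variance trend and 1792 with voom, and 97 (without old replicate 2) to 490 (without young replicate 2) when a library was left out. Calls were 436 higher and 111 lower with FPKM as deposited, 213 and 217 with median-of-ratios or upper-quartile scaling, and 212 and 189 without hormone and ribosomal RNA repeat genes. The 2 calls in the lists became 4 with a pseudocount of 1, 1 with one of 0.01, 7 among genes of at least 1 FPKM, 1 over every gene above 0, 4 with the trend, 1 with each of the 3 scalings and 15 with voom, and 0 in each fit without 1 library. Replicate numbers of the ages did not pair the libraries (correlations of same-numbered deviations from −0.088 to 0.057), and with the replicate number as a block 4 genes and 0 genes of the lists were called. At 15 to 118 fragments per library, differences in Uhrf1, Ezh2 and Dnmt3b smaller than the reach of their intervals were not detectable. The cause of these shifts was not tested.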
